A study of Mus musculus with 8 samples.

Results

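The imprinted genes described here are 48 genes of known imprinted clusters of the mouse, all of which were listed among the 55276 gene symbols of the expression tables. They were taken by symbol, and the set was chosen by a measured result: Peg3 and its neighbour Zim1 had been seen to be lower in Osr1cKO cells at 7 days post injury (dpi), so that comparison is given below as a description and supports nothing. By textbook knowledge 26 of the genes are expressed from the paternal allele, 21 from the maternal allele, and Gnas gives transcripts of either kind. The tables hold no reads by allele, so parental expression is background and was not measured. Some of these genes are imprinted only in certain tissues, so the labels need not hold in the cells studied here.

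The libraries came from fibro-adipogenic progenitors (FAPs), mesenchymal cells that lie between the fibres of skeletal muscle. The tibialis anterior muscle of mice aged 4 to 6 months was injured by freezing, and tamoxifen was given on the day of injury and on the next days. Control mice were Osr1flox/+ CAGG-Cre+ and Osr1cKO mice were Osr1flox/flox CAGG-Cre+, so both carried the ubiquitous inducible Cre, both received tamoxifen, and the controls were heterozygous after recombination. Cells were sorted for the eGFP that the recombined Osr1 allele produces and for absence of lineage markers, at 3 and 7 dpi. There were 4 groups of 2 libraries each, 8 in all. Per the methods of the study a library held cells of 1 mouse at 3 dpi and of 4 pooled mice at 7 dpi, so day and pooling cannot be told apart. The sequencing of the study used 2 instruments with different read lengths, and which library went on which is not given in the sources used here.

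Genomic imprinting is the expression of a gene from only the maternally or only the paternally inherited copy, set by DNA methylation placed in the germ line at imprinting control regions. Imprinted genes sit in clusters that share such a region, and many encode growth factors, cell cycle inhibitors or long noncoding RNAs. In muscle and in mesenchymal cells a group of them is known for high expression during growth and for low expression in the adult, and some of them come back during tissue repair.

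Values are in TPM, a transcript level normalized for gene length and depth, so levels may be compared between genes. Differences are log2 fold changes on the log2(TPM + 1) scale after a trimmed-mean scaling, which understates the change of genes under a few TPM. Recovered depth was between 36516528 and 51096358 fragments on genes per library. Osr1, the deleted gene, had levels of 105 and 91 TPM in control libraries against 70.7 and 71.9 TPM in Osr1cKO libraries at 3 dpi, and of 67.6 and 71.6 TPM against 64.4 and 60.8 TPM at 7 dpi. These whole-gene values do not separate the floxed part of the gene from the rest. The summed level of the 8 FAP markers lay between 20132 and 35143 TPM, most of it Col1a1 at 12404 to 28083 TPM. One library stood apart: in control replicate 2 at 3 dpi, 3 of 2911 genes with a median of at least 50 TPM were below 0.1 times their level in every other library, against 0 in the other 7 libraries, and 1 of the 3 was the imprinted gene Gnas. The other two were Gm42418 and Gm27483, a short RNA annotated on the opposite strand within H19.

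As background 4 start regions are shown: the shared start of Peg3 and Usp29, and those of Zim1, Dlk1 and Mest. No expression result rests on them. The sequences are from RefSeq promoter windows of GRCm38.p6 and were trimmed to bases outside annotated exons. They read 5′ to 3′ on the strand of the gene named first, and capitals mark CpG dinucleotides, the sites of DNA methylation. The first is the 146-base stretch between the divergent starts of Peg3 and Usp29 (chr7:6730432-6730577, minus strand), the second lies before Zim1 (chr7:6696451-6696682, minus strand), the third before Dlk1 (chr12:109452573-109452822, plus strand) and the fourth before a start of Mest (chr6:30737800-30738049, plus strand).
Peg3-Usp29: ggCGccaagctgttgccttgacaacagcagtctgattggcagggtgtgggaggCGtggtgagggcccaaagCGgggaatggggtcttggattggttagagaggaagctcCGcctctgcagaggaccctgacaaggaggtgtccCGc
Zim1: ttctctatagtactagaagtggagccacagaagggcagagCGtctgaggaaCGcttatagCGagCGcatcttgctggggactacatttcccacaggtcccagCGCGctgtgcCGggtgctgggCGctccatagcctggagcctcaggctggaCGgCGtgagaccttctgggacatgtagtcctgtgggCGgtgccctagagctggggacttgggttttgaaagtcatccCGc
Dlk1: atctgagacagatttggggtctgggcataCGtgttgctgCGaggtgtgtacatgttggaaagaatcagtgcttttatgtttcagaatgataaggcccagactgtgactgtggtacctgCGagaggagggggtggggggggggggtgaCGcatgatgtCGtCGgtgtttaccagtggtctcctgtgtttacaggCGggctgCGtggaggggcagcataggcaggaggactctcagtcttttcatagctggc
Mest: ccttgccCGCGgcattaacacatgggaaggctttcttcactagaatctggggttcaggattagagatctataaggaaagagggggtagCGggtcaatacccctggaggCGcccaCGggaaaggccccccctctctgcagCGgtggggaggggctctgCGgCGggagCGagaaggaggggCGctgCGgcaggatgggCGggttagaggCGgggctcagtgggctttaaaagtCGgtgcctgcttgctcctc

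These stretches hold 5 CpG sites in 146 bases for Peg3-Usp29, 12 in 232 bases for Zim1, 8 in 250 bases for Dlk1 and 14 in 250 bases for Mest. Promoter windows were held for 40 of the 48 genes, 60 windows in all. Their median was 10 CpG sites in the 250 bases before the start, against 6 over all 32851 windows. The motif GGGGCCCC, a core of the site that the imprinted zinc finger protein PLAGL1 is known to bind, was found on either strand in 4 of the 60 windows (6.67%), those of Peg3, Usp29, Ppp1r9a and Rasgrf1, against 1.08% of all windows of 300 bases. The windows of Peg3 and Usp29 overlap and share 1 match. That match is at chr7:6730613-6730620, outside the stretch printed above and within the annotated gene Usp29. The motif GCCATNTT, a core of the YY1 site, was found on either strand in 3 windows (5%), those of Mkrn3, Slc38a4 and Ube3a, against 6.05% of all windows. These matches are descriptions of letters and not of binding.

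**Figure D1:**
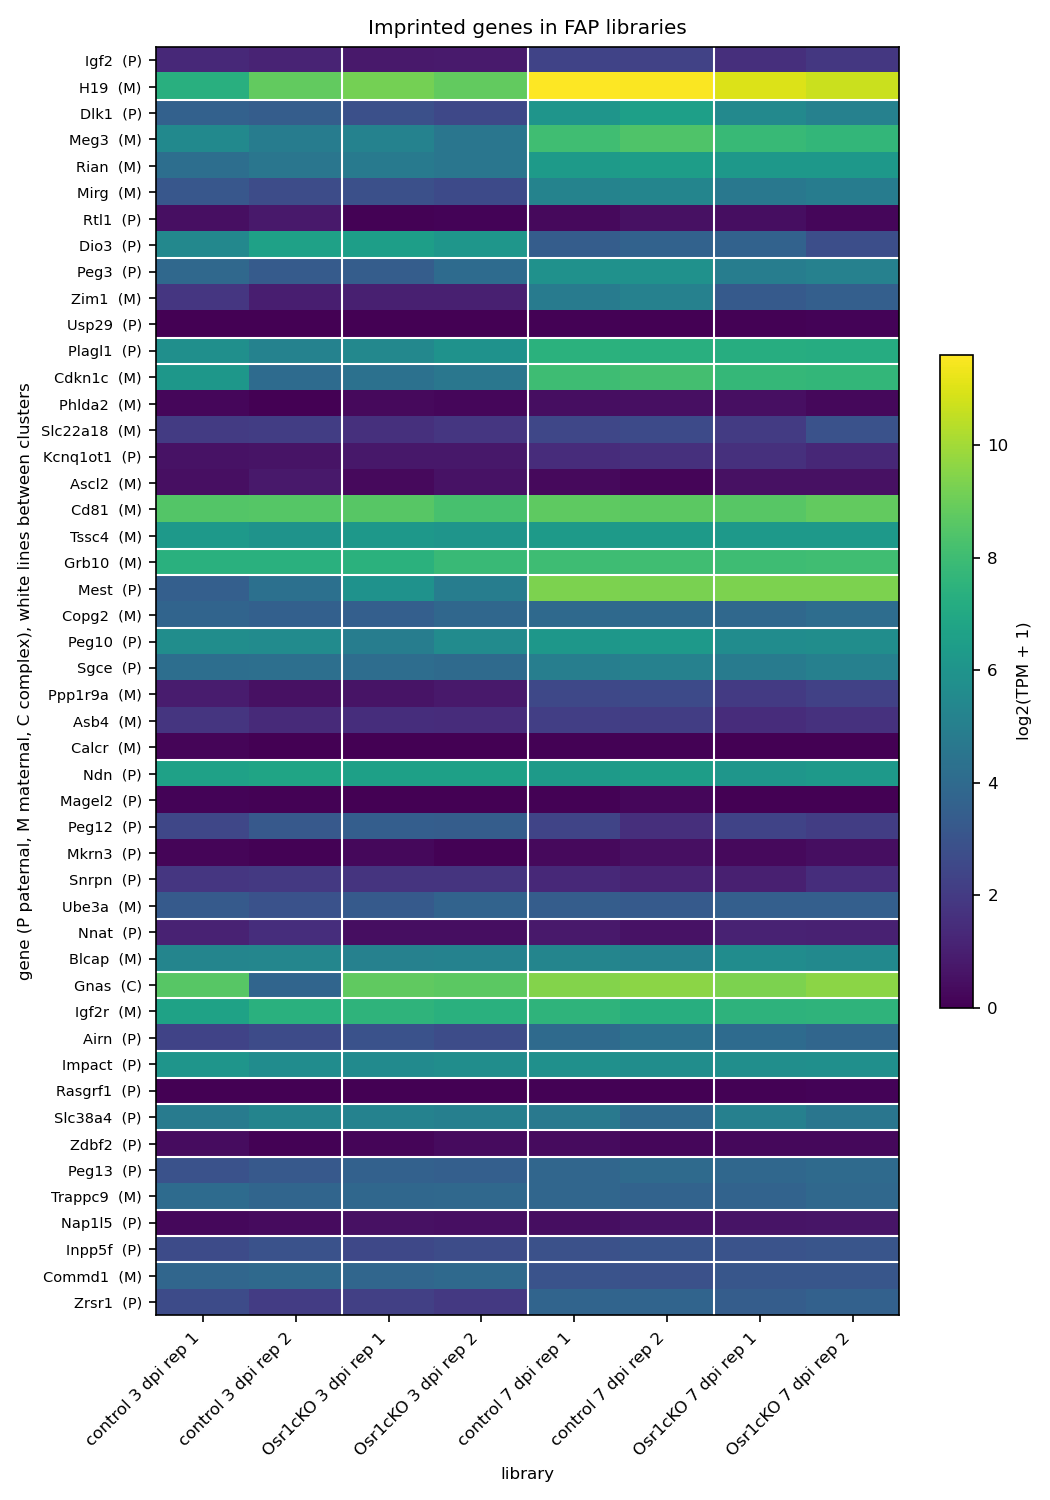
Level of the 48 imprinted genes (rows, by cluster, with the parental copy known to be expressed) in the 8 libraries (columns), as log2(TPM + 1) in colour. H19 reached the highest level, Gnas was low in 1 control library at 3 dpi, and Mest, Dlk1 and Meg3 were higher in all 4 libraries at 7 dpi than in all 4 at 3 dpi.

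Levels of the imprinted genes differed widely. None of the 48 was at 0 in all libraries, 10 were under 1 TPM in every library, and 10 were over 100 TPM in at least 1 library. The 6 with the highest mean level over the libraries were H19 (1429 TPM), Gnas (514 TPM), Cd81 (388 TPM), Mest (333 TPM), Grb10 (222 TPM) and Igf2r (166 TPM). Cd81, a tetraspanin of the cell surface, was at 365 and 368 TPM in control libraries against 388 and 304 TPM in Osr1cKO libraries at 3 dpi, and at 428 and 411 TPM against 389 and 448 TPM at 7 dpi. Grb10, an adaptor that dampens insulin and IGF receptor signalling, was at 164 and 164 TPM in control libraries against 172 and 231 TPM in Osr1cKO libraries at 3 dpi, and at 259 and 264 TPM against 255 and 264 TPM at 7 dpi. Igf2r, the receptor that clears IGF2 from the cell surface, was at 103 and 164 TPM in control libraries against 186 and 163 TPM in Osr1cKO libraries at 3 dpi, and at 186 and 156 TPM against 183 and 185 TPM at 7 dpi. In Grb10 all libraries of 7 dpi lay above all of 3 dpi, in Cd81 they did so only just (389 against 388 TPM), and in Igf2r the days overlapped.

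The 6 genes that were too low to test in the comparison of days were Usp29, Phlda2, Calcr, Magel2, Mkrn3 and Rasgrf1, and the other 42 were tested. Usp29, which starts beside Peg3, had between 2 and 12 recovered fragments per library (0.00845 to 0.0691 TPM), so the pair share a start region but not a level. A gene was tested where it had at least 10 recovered fragments in 2 libraries and 15 in all, which Nap1l5 did not reach at 3 dpi and Ascl2 did not reach at 7 dpi, leaving 41 tested on each day. For 22 of the 48 genes some annotated exon bases are shared with another gene, and for 8 genes at least 10% of them. Igf2 shares 62.8% with Gm49394 on the same strand, Cdkn1c 30.7% with Gm44732 on the opposite strand, Mest 23.1% with Copg2 on the opposite strand, and Snrpn 27.3% with Gm38393 on the same strand. How reads in such bases were counted is not given in the sources used here, so the levels of these genes are uncertain.

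The comparison of 7 dpi with 3 dpi, over both genotypes, asked how the imprinted genes differed between the early and the later phase of regeneration. A gene was called where the adjusted p was under 0.05 and the fold change over 1.2. Of the 42 genes tested, 21 were higher at 7 dpi, where 27.4% of all 17371 genes tested were called higher, and 5 were lower, where 29.8% of all genes were. The median log2 fold change of the tested imprinted genes was 0.39 (quartiles 0.01 and 1.68), beside 0.01 (quartiles -0.45 and 0.42) for all genes tested. Of the genes called, 19 of the 21 higher ones had all 4 libraries of 7 dpi above all 4 of 3 dpi in deposited TPM, and all 5 lower ones had them below. Over all 17371 genes tested, 4042 were higher and 4492 lower in this way with a fold over 1.2, beside 4762 and 5171 called. Genes that are called tend to be apart, so this count adds no support to the calls. Among genes known for paternal expression 11 of 22 tested were higher and 4 lower, and among those known for maternal expression 10 of 19 were higher and 1 lower.

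**Figure D2:**
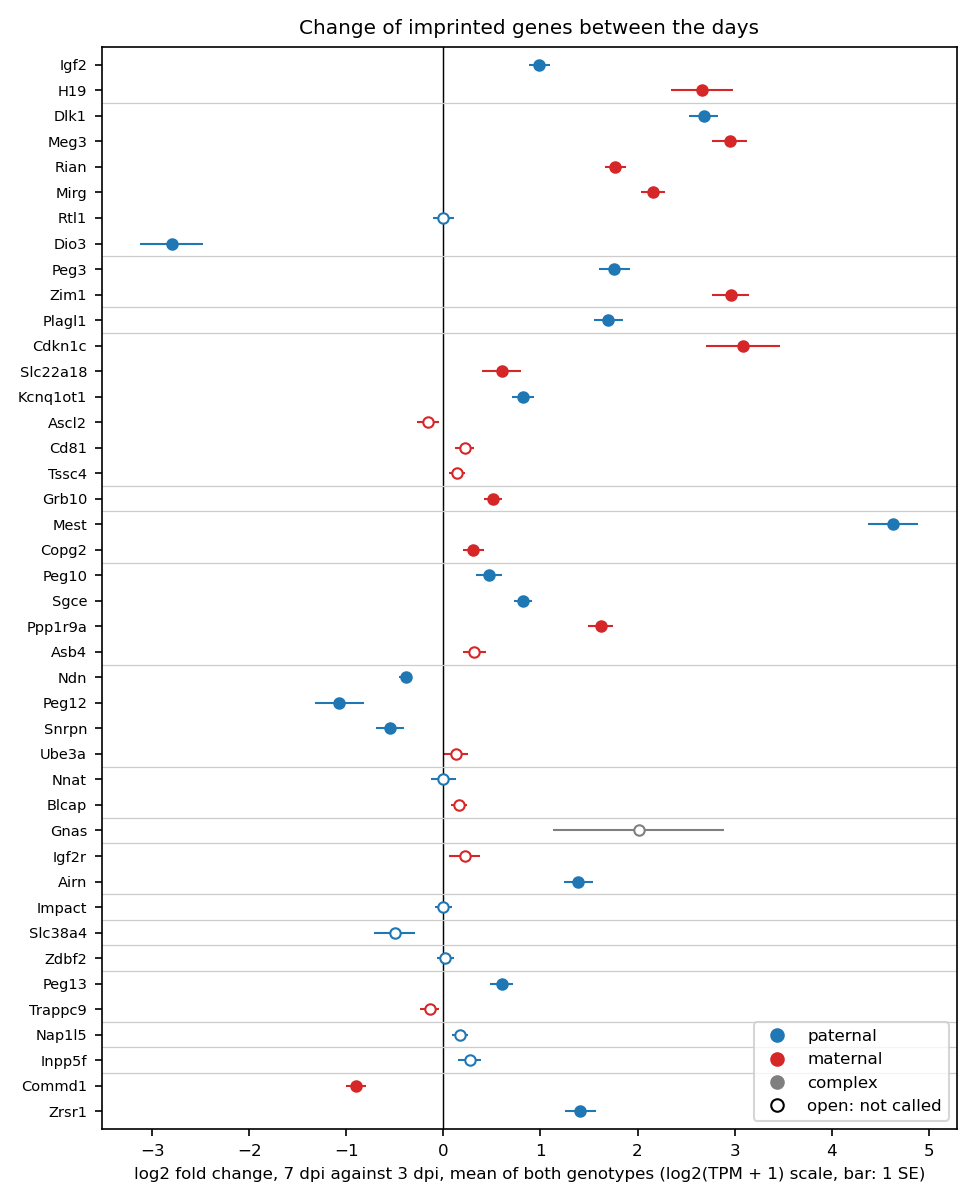
Log2 fold change of 7 dpi against 3 dpi (mean of both genotypes, log2(TPM + 1) scale, bars 1 SE) for the 42 imprinted genes tested, ordered by cluster and coloured by the parental copy known to be expressed. Filled points were called (adjusted p under 0.05 and fold over 1.2): 21 lie to the right of 0 and 5 to the left, with Mest at 4.63 and Dio3 at -2.80 as the extremes.

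Mest, a paternally expressed gene for a predicted hydrolase of the endoplasmic reticulum, rose most. It was at 10.5 and 18.4 TPM in control libraries against 60.4 and 29.6 TPM in Osr1cKO libraries at 3 dpi, and at 647, 620, 641 and 635 TPM in the 4 libraries of 7 dpi. The groups of the 2 days lay far apart, and the 4 libraries of 7 dpi were close to each other. The log2 fold change was 4.63 (SE 0.26, limma adjusted p = 3.44e-05), a 24.8-fold difference. Copg2, a coat protein gene that ends within Mest on the other strand, was called higher with a log2 fold change of 0.31 (SE 0.11, adjusted p = 0.0404), a call lost in 6 of the 8 fits that left out 1 library. Its levels were between 10.6 and 16.9 TPM, and since its exons overlap those of Mest, part of its value may come from reads of Mest if strand was not used in counting.

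At the Igf2-H19 domain both genes rose. H19, a maternally expressed long noncoding RNA, was at 160 and 448 TPM in control libraries against 579 and 454 TPM in Osr1cKO libraries at 3 dpi. At 7 dpi it was at 3126 and 2953 TPM in control libraries against 2074 and 1639 TPM in Osr1cKO libraries, all above the 3 dpi values. The log2 fold change between the days was 2.66 (SE 0.32, adjusted p = 0.000436). Igf2, the growth factor gene on the same domain that is expressed from the paternal copy, was far lower, at 1.52, 1.24, 0.718 and 0.787 TPM in control and Osr1cKO of 3 dpi and at 4.1, 3.86, 1.98 and 2.66 TPM in those of 7 dpi. Between the days it rose by 0.99 (SE 0.11, adjusted p = 0.00033) on the log2 scale.

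In the Dlk1-Dio3 domain 4 of 6 genes rose, Dio3 fell, and Rtl1 was not called. Dlk1, a paternally expressed transmembrane protein of the Notch ligand family that holds back fat cell formation, was at 11.1 and 9.77 TPM in control libraries against 6.08 and 4.77 TPM in Osr1cKO libraries at 3 dpi, and at 64.8 and 91.8 TPM against 43.2 and 32.9 TPM at 7 dpi. The log2 fold change of Dlk1 between the days was 2.68 (SE 0.15, adjusted p = 3.53e-05). The maternally expressed noncoding RNAs of the domain rose with it. Meg3 was at 44.6, 28.8, 34.5 and 22.9 TPM in the libraries of 3 dpi (control first) and at 263, 341, 228 and 206 TPM in those of 7 dpi, a log2 fold change of 2.95 (SE 0.18, adjusted p = 3.99e-05). Rian, a host of small nucleolar RNAs, was at 17.3, 22.4, 25.5 and 22.5 TPM and then at 79, 88.4, 71.1 and 71.3 TPM, with a log2 fold change of 1.77 (SE 0.11). Mirg, a host of microRNAs, was at 7.86, 5.45, 6.17 and 5.13 TPM and then at 35.2, 37.4, 24.2 and 28.8 TPM, with a log2 fold change of 2.16 (SE 0.12). In these 3 RNAs no library of 7 dpi reached down to any of 3 dpi.

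Dio3, at the far end of the same domain, encodes the deiodinase that inactivates thyroid hormone and went the other way. It was at 42 and 97.5 TPM in control libraries against 91.3 and 66.6 TPM in Osr1cKO libraries at 3 dpi, and at 9.6, 11.4, 11.7 and 6 TPM in the libraries of 7 dpi. This was a log2 fold change of -2.80 (SE 0.32, adjusted p = 0.000321). Rtl1, a gene derived from a retrotransposon, was at 0.0622 to 0.742 TPM over all libraries with a log2 fold change of 0.00 (SE 0.11).

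Both tested genes of the Peg3 domain rose between the days. Peg3, a paternally expressed zinc finger protein, was at 14.4 and 8.96 TPM in control libraries against 9.81 and 15.5 TPM in Osr1cKO libraries at 3 dpi, and at 57.8 and 58.4 TPM against 29.7 and 33.5 TPM at 7 dpi. Its log2 fold change was 1.76 (SE 0.16, adjusted p = 0.000154). Zim1, a maternally expressed zinc finger gene next to Peg3, was at 2.54, 0.972, 1.02 and 1 TPM at 3 dpi and at 27.2, 32.9, 8.71 and 10.4 TPM at 7 dpi. The difference between the days was a log2 fold change of 2.96 (SE 0.19, adjusted p = 4.62e-05). Of the 10 nearest tested protein coding genes around the domain, 5 on each side, 7 were called higher and 0 lower, with log2 fold changes between -0.34 (Zfp444) and 1.15 (Zfp772). Both Peg3 and Zim1 lay above that range.

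In other clusters Cdkn1c, Plagl1, Grb10, Slc22a18, Kcnq1ot1 and Peg13 rose. Cdkn1c, the maternally expressed cyclin-dependent kinase inhibitor p57, was at 69.4 and 15.6 TPM in control libraries against 19.1 and 23.6 TPM in Osr1cKO libraries at 3 dpi, and at 253, 280, 214 and 205 TPM at 7 dpi. Its log2 fold change was 3.09 (SE 0.38, adjusted p = 0.000481), and control replicate 1 was the high library of 3 dpi. Plagl1, the paternally expressed zinc finger factor, was at 53.6, 34.7, 41.6 and 60.4 TPM and then at 168, 161, 150 and 144 TPM, with a log2 fold change of 1.70 (SE 0.15). Grb10 rose by 0.51 (SE 0.09, adjusted p = 0.00317). Peg13 rose by 0.60 (SE 0.12, limma adjusted p = 0.00454), while Trappc9 of the same cluster was not called (-0.14, SE 0.10). In the Kcnq1 cluster Slc22a18, a transporter gene, and Kcnq1ot1, the noncoding RNA that silences the cluster in cis, were called higher with Cdkn1c, the call of Slc22a18 being lost in 6 of the 8 fits that left out 1 library, and the other tested genes Ascl2, Cd81 and Tssc4 were not called.

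Airn, the noncoding RNA that silences Igf2r on the paternal copy, rose from 4.1, 5.34, 6.62 and 5.42 TPM at 3 dpi to 15.4, 19.2, 15.6 and 13.1 TPM at 7 dpi. Its log2 fold change was 1.39 (SE 0.15, adjusted p = 0.000251), while Igf2r had one of 0.22 (SE 0.16, adjusted p = 0.283). In the Peg10-Sgce cluster 3 of 4 tested genes were called higher. Ppp1r9a, which encodes the actin-binding protein neurabin, was at 0.873, 0.454, 0.533 and 0.72 TPM and then at 4.76, 5.19, 2.89 and 3.73 TPM, a log2 fold change of 1.62 (SE 0.13). Peg10, a retrotransposon-derived gene, was at 50.8, 47.8, 29.5 and 47.4 TPM and then at 69.2, 77.7, 48.8 and 51.1 TPM, where the 2 days overlapped, with a log2 fold change of 0.47 (SE 0.13, adjusted p = 0.0195) that lost its call in 3 of those 8 fits. Sgce, the sarcoglycan gene beside it, had one of 0.82 (SE 0.09), and Asb4, at 2.41, 1.6, 1.87 and 1.77 TPM and then 3.52, 3.25, 1.82 and 2.17 TPM, was not called.

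The genes that fell, other than Dio3, were few. In the Snrpn cluster 3 of 4 tested genes were lower at 7 dpi and none higher. Ndn, which encodes the growth suppressor necdin, was at 99.7, 108, 97.2 and 95.4 TPM at 3 dpi and at 79.9, 86.9, 67.7 and 74.7 TPM at 7 dpi, with a log2 fold change of -0.39 (SE 0.07, adjusted p = 0.00314). Peg12 had one of -1.07 (SE 0.25) and Snrpn, a splicing protein gene, one of -0.55 (SE 0.14). Ube3a, a ubiquitin ligase gene counted here as maternal, had a log2 fold change of 0.13 (SE 0.12, adjusted p = 0.405). At the Commd1-Zrsr1 locus, where Zrsr1 lies within Commd1 on the other strand, the pair went opposite ways. Their annotated exons share bases, 9.17% of those of Zrsr1 and 6.94% of those of Commd1, and the use of strand in counting is not known. Zrsr1 was at 5.38, 3.13, 3.66 and 2.84 TPM and then at 12.5, 12.5, 9.77 and 11.2 TPM (log2 fold change 1.41, SE 0.16), and Commd1 had a log2 fold change of -0.90 (SE 0.10, adjusted p = 0.000335).

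Gnas, which encodes the stimulatory G protein alpha subunit, was not called between the days. It was at 388 and 12.9 TPM in control libraries against 440 and 405 TPM in Osr1cKO libraries at 3 dpi, and at 707 and 759 TPM against 643 and 760 TPM at 7 dpi. Control replicate 2 at 3 dpi stood far below all other libraries, with 1830 recovered fragments against 54015 in replicate 1, and the overlapping gene Gm20721 was at 0.053 TPM in that library and at 5.14 to 39.6 TPM in the others. The log2 fold change was 2.01 (SE 0.88, adjusted p = 0.0865) with all libraries and 0.83 (SE 0.09) without that one. Without that library its group held 1 library, so counts of genes called are not given for that fit.

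**Figure D3:**
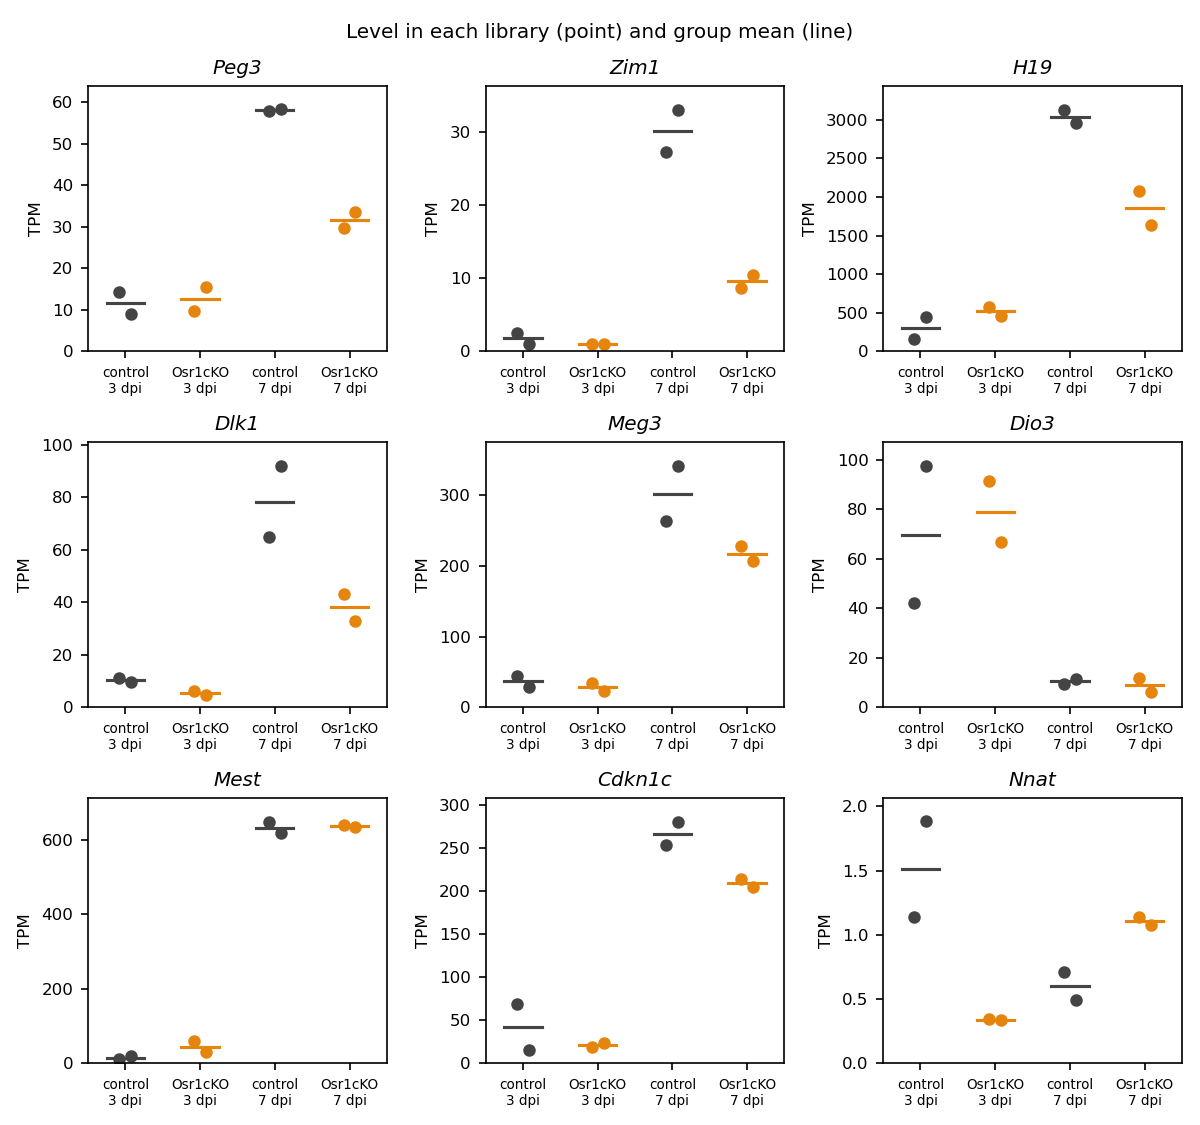
TPM of 9 imprinted genes in each library (points, 2 per group) with the group mean (lines), for control and Osr1cKO at 3 and 7 dpi; each panel has its own linear axis from 0. Peg3, Zim1, H19, Dlk1, Meg3, Mest and Cdkn1c were higher at 7 dpi and Dio3 was lower, and in the panels of Peg3 and Zim1 the Osr1cKO libraries of 7 dpi lie below the control ones.

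FAP markers, other cell types and the cell cycle moved with the day too. Of the 8 FAP markers 5 were called higher at 7 dpi, with Lum (1.99, SE 0.15) and Dpp4 (1.73, SE 0.30) the largest. The 2 called lower were Ly6a (-1.10, SE 0.20) and Pdgfra (-0.60, SE 0.10), and Col1a1 (0.41, SE 0.44) was not called. The summed level of the 6 proliferation markers was 360 to 535 TPM at 3 dpi and 32.6 to 77.4 TPM at 7 dpi, and all 6 were called lower. The summed level of the 11 myogenic markers was 12.2 to 32.8 TPM at 3 dpi and 49.4 to 99.9 TPM at 7 dpi, with 6 of 11 called higher; the defining genes Pax7, Myf5, Myod1 and Myog were each at 0 to 0.11 TPM at 3 dpi, and Myog reached 14.1 TPM in control replicate 1 of 7 dpi. The control libraries of 7 dpi had summed myogenic levels of 99.9 and 49.4 TPM. The sums were 10.7 to 19.3 and then 37.9 to 57.9 TPM for 6 macrophage markers, 17.2 to 44.7 and then 46.3 to 71.8 TPM for 6 endothelial markers, 13.2 to 25.2 and then 35.8 to 101 TPM for 5 mural markers, and 5.5 to 7.83 and then 12.2 to 24.2 TPM for 6 Schwann cell markers. The 3 lymphoid markers summed to at most 0.103 TPM at 3 dpi and to 0.114 to 4.34 TPM at 7 dpi. The part of these cells, of the FAP marker shifts and of the cell cycle in the changes of imprinted genes was not tested. In such bulk samples a change in the share of cells and one in RNA per cell cannot be told apart.

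Other genes listed as imprinted or as near imprinted genes, and factors of imprint upkeep or DNA demethylation, moved both ways. Of 24 tested other genes of imprinted clusters, 7 were called higher and 8 lower at 7 dpi, with a median log2 fold change of 0.11; Klf14 had one of 1.56 (SE 0.16) and Atp10a one of -1.11 (SE 0.09). Of 14 tested factors of imprint upkeep or DNA demethylation, 5 were higher and 6 lower. The higher ones include the demethylating oxidase gene Tet2, with a log2 fold change of 0.91 (SE 0.21). Dnmt1, the maintenance DNA methyltransferase, had a log2 fold change of -1.97 (SE 0.11, adjusted p = 3.44e-05), and Uhrf1, which guides it to replicated DNA, one of -2.73 (SE 0.20, adjusted p = 6.82e-05). Zfp57, the zinc finger protein that protects imprinted methylation, rose by 1.21 (SE 0.17, adjusted p = 0.000869), and the demethylating oxidase gene Tet1 rose by 0.86 (SE 0.11, adjusted p = 0.000462). Of 6 genes of IGF signalling, Igf1 was higher (2.28, SE 0.19) and 4 were lower, the receptor gene Igf1r and the Igf2 mRNA-binding protein genes Igf2bp1, Igf2bp2 and Igf2bp3.

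The comparison of Osr1cKO with control at 3 dpi asked which imprinted genes differed with loss of Osr1 in early regeneration. With a fold change over 1.2 and an unadjusted p under 0.05, 1 of 41 tested genes was higher, where 2.40% of 15699 genes were called higher, and 4 were lower, where 3.87% of all genes were. Of these 4, 2 (Rtl1 and Nnat) passed the filter only through the control libraries, so their calls count for little. With a mean of at least 1 TPM as the filter 1 was lower, where 3.63% of all genes were. No imprinted gene and none of all genes had an adjusted p under 0.1, and the smallest adjusted p over all genes was 0.336. By sign 18 were higher and 23 lower, and the median log2 fold change was -0.02 beside 0.01 for all genes.

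Mest was the gene called higher, with the 3 dpi values given above: both Osr1cKO libraries lay above both control ones, but the Osr1cKO libraries themselves differed from each other (60.4 and 29.6 TPM). The log2 fold change was 1.54 (SE 0.43, limma adjusted p = 0.774). Without Osr1cKO replicate 1 it was 1.01 and without Osr1cKO replicate 2 it was 2.07, and the call was lost without control replicate 1 or Osr1cKO replicate 1. Dlk1 was lower by a log2 fold change of -0.83 (SE 0.21, adjusted p = 0.774), its libraries not overlapping, and lost the call without Osr1cKO replicate 2. Igf2 was lower by -0.44 (SE 0.16, adjusted p = 0.784), at 52 to 108 recovered fragments per library, and lost the call without control replicate 1 or either Osr1cKO library.

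The other two called lower, Rtl1 and Nnat, reached 10 fragments at 3 dpi only in the control libraries, so that they passed the filter through the group in which they were high. Rtl1 was at 0.379 and 0.742 TPM (30 and 60 fragments) in control and 0.0622 and 0.0721 TPM (5 and 6 fragments) in Osr1cKO at 3 dpi, and at 0.219, 0.442, 0.343 and 0.164 TPM in the libraries of 7 dpi. Its log2 fold change at 3 dpi was -0.54 (SE 0.16, adjusted p = 0.774), and the call was lost without either Osr1cKO library. Nnat, a membrane proteolipid gene that lies within an intron of Blcap, was at 1.14 and 1.89 TPM in control libraries against 0.346 and 0.334 TPM in Osr1cKO libraries at 3 dpi, and at 0.71 and 0.495 TPM against 1.14 and 1.08 TPM at 7 dpi. For Nnat the log2 fold change at 3 dpi was -0.89 (SE 0.20, adjusted p = 0.774).

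The other imprinted genes were not called at 3 dpi, and several had libraries of 1 group that differed widely. Peg3 had a log2 fold change of 0.11 (SE 0.30, adjusted p = 0.965) and Zim1 one of -0.39 (SE 0.30, adjusted p = 0.872), and in both genes the libraries overlapped. For H19 it was 0.93 (SE 0.51, adjusted p = 0.831), but 0.18 without control replicate 1 and 1.67 without control replicate 2. For Cdkn1c it was -0.62 (SE 0.67), which turned to 0.41 without control replicate 1. For Gnas it was 2.53 (SE 1.51) and 0.12 (SE 0.15) without control replicate 2. Of the genes beside the set, Igf1 was called higher (1.19, SE 0.29, adjusted p = 0.774). Atp10a and Gpr1 were called lower out of 22 tested other genes listed as imprinted or as near imprinted genes. None of the 14 factors of imprint upkeep or DNA demethylation was called. The summed proliferation markers were 360 and 433 TPM in control libraries against 438 and 535 TPM in Osr1cKO libraries, none of them called. Of the cell type markers, the FAP marker Ly6a was called lower (-0.94, SE 0.34, adjusted p = 0.784) and the Schwann cell marker Ngfr higher (1.13, SE 0.43, adjusted p = 0.784), and none of the tested myogenic, macrophage, endothelial and mural markers was called. The part of these shifts in the values of imprinted genes was not tested.

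The 7 dpi values of Osr1cKO against control are a description, since Peg3 and Zim1 in this comparison led to the choice of the set. In 16 of 41 genes the Osr1cKO libraries lay below the control ones after scaling with a fold over 1.2, where 9.51% of 16578 genes did, and in 1 gene, Nnat, they lay above, where 8.95% did. By sign 34 were lower and 7 higher, and the median log2 fold change was -0.17 (quartiles -0.47 and -0.04) beside 0.01 (quartiles -0.13 and 0.14) for all genes. Without the scaling the median over all genes was 0.11, and the genes apart by more than 1.2-fold numbered 3291 higher and 850 lower in place of 1484 and 1577; of the imprinted genes, 2 were then higher and 11 lower.

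Zim1 and Peg3 differed most from control on this scale together with Dlk1. Zim1 was at 27.2 and 32.9 TPM in control libraries against 8.71 and 10.4 TPM in Osr1cKO libraries, a log2 fold change of -1.68 (SE 0.13, 3.19-fold lower). Peg3 was at 57.8 and 58.4 TPM in control libraries against 29.7 and 33.5 TPM in Osr1cKO libraries, a log2 fold change of -0.99 (SE 0.08), and Dlk1 had one of -1.14 (SE 0.21). Among the 10 neighbours of the Peg3 domain log2 fold changes ran from -1.41 to 0.44, with 1 gene lower and 2 higher without overlap. The lower one, Clcn4, varied among libraries of 1 group, at 34 and 28.3 TPM in control libraries against 6.63 and 21.7 TPM in Osr1cKO libraries at 7 dpi, and at 28.3, 19.7, 22.8 and 4.47 TPM at 3 dpi.

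The other genes below control without overlap and with a fold over 1.2 were H19 (-0.85, SE 0.18) and Igf2 (-0.69, SE 0.16), then Meg3 (-0.60, SE 0.14), Mirg (-0.57, SE 0.10) and Rian (-0.36, SE 0.08) of the Dlk1-Dio3 domain, and Peg10 (-0.67, SE 0.08), Asb4 (-0.64, SE 0.15) and Ppp1r9a (-0.58, SE 0.16) of the Peg10-Sgce cluster. Cdkn1c (-0.47, SE 0.09), Airn (-0.37, SE 0.16), Ndn (-0.35, SE 0.08), Zrsr1 (-0.35, SE 0.12) and Plagl1 (-0.29, SE 0.08) had smaller differences. Mest, the gene with the largest change between the days, was at 647 and 620 TPM in control libraries against 641 and 635 TPM in Osr1cKO libraries, which overlapped before scaling, a log2 fold change of -0.12 (SE 0.09). Of the 16 genes, 8 are known for paternal and 8 for maternal expression.

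**Figure D4:**
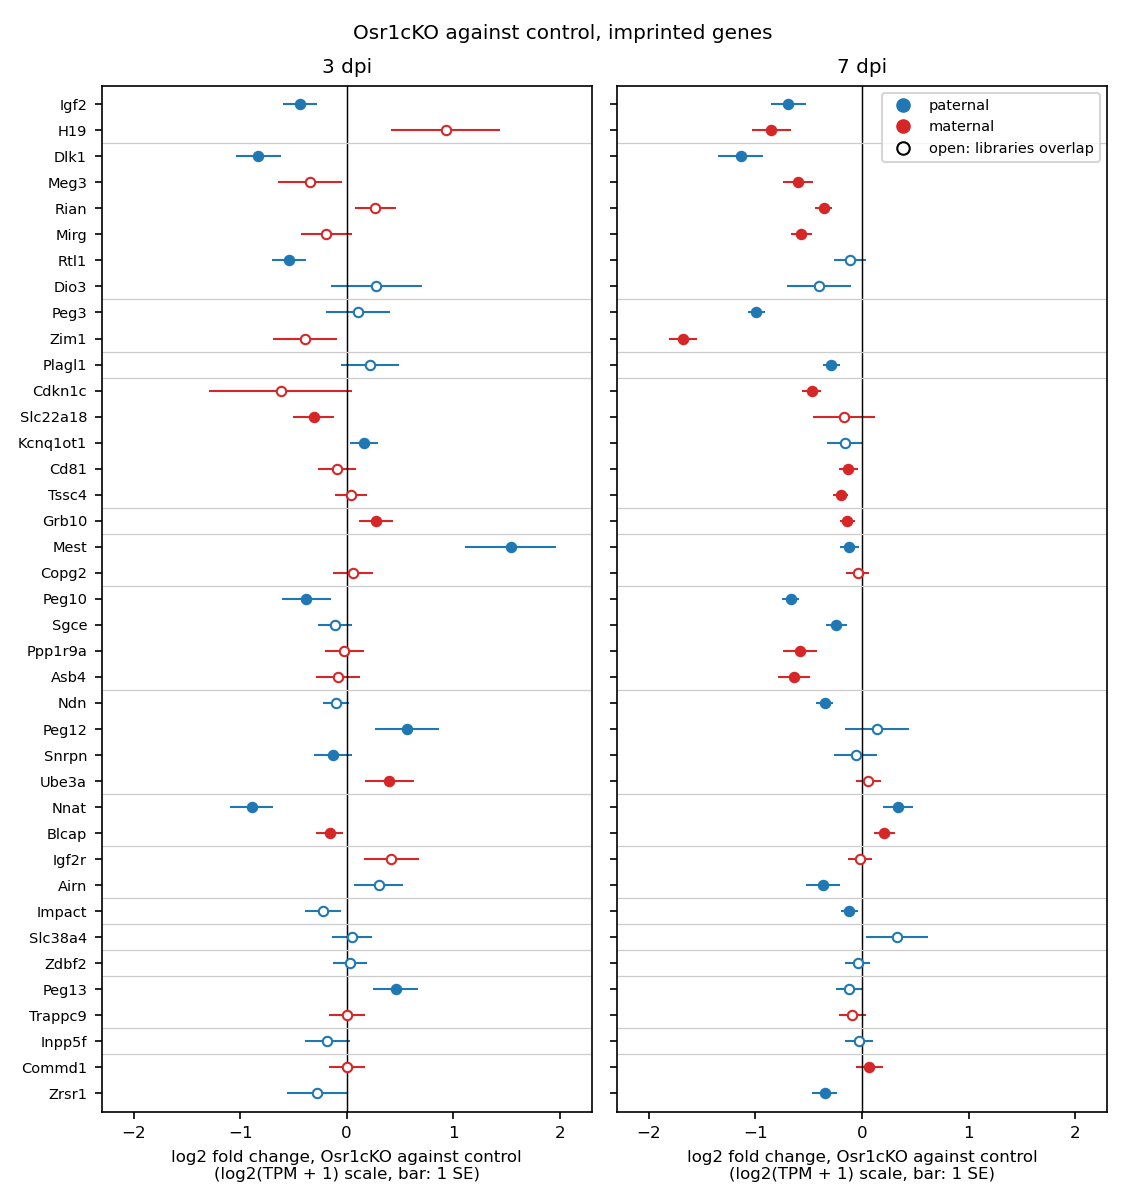
Log2 fold change of Osr1cKO against control (log2(TPM + 1) scale, bars 1 SE) at 3 dpi (left) and 7 dpi (right) for the imprinted genes tested on both days except Gnas, whose 3 dpi value rests on 1 library. Filled points are genes whose libraries did not overlap between the genotypes after scaling. Zim1 was at -1.68 at 7 dpi. Over all 41 genes tested on a day, drawn or not, 34 had a negative value at 7 dpi and 23 at 3 dpi. Gnas, Ascl2 and Nap1l5 are not drawn.

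Day changes within each genotype share the 7 dpi libraries with that comparison and are given without a test. Peg3 had a log2 fold change between the days of 2.33 in control and 1.19 in Osr1cKO, Zim1 of 3.62 and 2.31, H19 of 3.57 and 1.74, and Mest of 5.48 and 3.78. For Dlk1 the values were 2.85 and 2.50, for Meg3 3.10 and 2.80, and for Cdkn1c 3.04 and 3.14. All of these genes were higher at 7 dpi in both genotypes. Proliferation markers also differed with genotype at 7 dpi, where all 6 were higher in Osr1cKO without overlap and with a fold over 1.2: they summed to 53.7 and 32.6 TPM in control libraries against 77.4 and 74.3 TPM in Osr1cKO libraries, while the summed myogenic markers, at 99.9 and 49.4 TPM against 51.8 and 51.1 TPM, overlapped. The median log2 fold change of the 11 myogenic markers was -0.53, and by the same rule 2 of them, Acta1 (-0.86, SE 0.17) and Ckm (-0.71, SE 0.25), were lower and none higher. Of 6 endothelial markers 3 were higher, Cdh5 (0.52, SE 0.15), Emcn (0.49, SE 0.13) and Vwf (0.43, SE 0.22). Higher by that rule were also 2 of 5 tested Schwann cell markers, S100b (0.63, SE 0.23) and Ngfr (0.29, SE 0.14), and 1 of 6 macrophage markers, Csf1r (0.42, SE 0.16), while 1 of 5 mural markers, Notch3 (-0.39, SE 0.18), was lower and none of the 8 FAP markers met it in either direction. The part of these markers in the differences of imprinted genes was not tested.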

How the data were processed

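RNA of sorted FAPs was enriched for polyadenylated transcripts and made into stranded libraries. Per the labels and the methods of the study, the authors aligned paired reads to mm10 with STAR, normalized with DESeq2 and deposited TPM per gene symbol; the counter, its annotation and its use of strand are not given in the sources used here. Of 55385 entries per library, 109 repeated entries of 106 symbols were left out. GENCODE release M21 (GRCm38) gave exon lengths for 53281 of 55276 symbols. With these, low values (under 50 fragments) were whole to within 0.02 in 98.7% to 99.0% of cases, which gave depth and fragments; counting error is largest for genes near the filter.

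A trimmed mean of log ratios (30% trim) scaled the TPM, which were tested as log2(TPM + 1) with limma 3.58.1 in R 4.3.3 (lmFit, eBayes with trend), with Benjamini-Hochberg adjusted p over all genes tested. The filter was 10 fragments in 2 libraries and 15 in all, or for the 1995 symbols without a length a mean of at least 1 TPM. Each day was fitted on its 4 libraries and the days on all 8. The p-values measure the spread between libraries, which held 1 mouse at 3 dpi and 4 at 7 dpi. The fit of the days used a common variance for both kinds of library, so its p-values do not measure the spread between single mice. The scripts were tested on simulated data, and tables were handled with Python 3.11.15, pandas 2.3.3 and NumPy 2.4.6.

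The members and lists were chosen with earlier results of these data known, and the same holds for the rule on names. Values per library are given for Peg3, Zim1 and Usp29, genes called at 3 dpi, genes without overlap at 7 dpi, the 8 largest changes between the days, the 6 highest levels, and the Igf2-H19 and Dlk1-Dio3 genes. Alternatives were the scaling, filter, pseudocount, replicate block, limma-voom on recovered fragments, robust eBayes, 1 fit for all libraries and leaving out each library. Replicate numbers come from the labels, which do not say that they pair samples.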

Additional observations from a re-analysis of the deposited data

Results flagged for a closer look

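In 5 imprinted genes the Osr1cKO libraries lay on one side of the control ones at 3 dpi and on the other side at 7 dpi, without overlap on either day after scaling; in deposited TPM those of Mest, Grb10 and Gnas overlapped at 7 dpi. The log2 fold change at 7 dpi minus that at 3 dpi was -1.66 for Mest, 1.23 for Nnat, -0.42 for Grb10, 0.38 for Blcap, the gene that holds Nnat in its intron, and -2.73 for Gnas. No fold threshold was applied, and the share of all genes with such a reversal was not counted, so the 5 genes cannot be set against a background. These differences were not tested, since the 7 dpi comparison was used to choose the genes. For Gnas the 3 dpi value rests on control replicate 2, without which it was 0.12 in place of 2.53. Nnat was at 8 recovered fragments in each Osr1cKO library of 3 dpi.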

How the results depend on the processing

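The counts for the days, 21 higher (27.4% of all genes) and 5 lower (29.8%), stayed within 1.5 times under every alternative run. With no filter on low values they were 18 and 5, where 11.5% and 15.6% of all genes were called. The calls of Slc22a18, Copg2 and Peg10 were lost without some libraries and with no filter on low values. At 3 dpi the count higher was 1 (2.4% of all genes), but 4 (5.34%) with all 8 libraries in 1 fit and 0 (0%) at an adjusted p under 0.1. The count lower was 4 (3.87% of all genes), but 1 (3.63%) with a mean of at least 1 TPM as the filter and 0 (0%) at an adjusted p under 0.1. Both 3 dpi counts also moved in fits with 1 library left out, and the shares of all genes moved too. Igf2 lost its 3 dpi call under the other filters, with a pseudocount of 0.1 and with the replicate block. At 7 dpi the 1 gene higher without overlap (8.95% of all genes) became 2 (19.9%) without further scaling, 0 (9.3%) with a mean of at least 1 TPM and 2 (6.8%) with no filter. The 16 lower (9.51% of all genes) became 11 (5.13%) without further scaling. Both 7 dpi counts also changed in some fits with 1 library left out, as did the shares of all genes. Where a library was left out, its group's lone library was assumed to vary like the others. Depth kept 6 genes with at most 12 fragments in any library out of the comparison of days. The cause of these changes was not tested beyond the fewer libraries or genes.

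Same-numbered libraries deviated together with correlations of only -0.13 between the genotypes at 3 dpi, 0.06 at 7 dpi, and -0.14 and -0.08 between the days, so the numbers were not taken to pair them. With the replicate block 1 imprinted gene was higher (2.11% of all genes) and 3 lower (4.13%) at 3 dpi. Between the days 21 (26.4%) and 5 (29.1%) were, and at 7 dpi 1 (8.95%) and 16 (9.51%). A crossed pairing at 3 dpi, chosen after seeing the data, gave 2 higher (3.08% of all genes) and 3 lower (4.36%).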
